A study of Oreochromis niloticus with 9 samples.

Results

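Transferrin and other iron handling genes were followed in the liver of GIFT, a farmed strain of the Nile tilapia *Oreochromis niloticus* bred for growth, fed apple peel powder (APP). The genes were taken by symbol, and the symbols were chosen with earlier results of these data known. Among them were *tfa* (transferrin), *tfr1a*, *tfr1b* and *tfr2* (transferrin receptors), *hamp* (hepcidin) and *cp* (ceruloplasmin). The others were *hpx* and *hpxa* (hemopexin), *slc40a1* (ferroportin) and every symbol that begins with *fth1* (ferritin heavy subunit). All these symbols together matched 11 of the 37283 loci in the table, with 2 loci for *tfr1a*, 1 each for *fth1a* and *fth1b*, and 0 for *hpxa*. Juvenile fish of this strain received a basal diet with no APP (C), with 0.2% APP (APP_A) or with 0.8% APP (APP_H) for 8 weeks. The labels write APP_A and APP_H as APE_A and APE_H. Each diet had 3 tanks, and each library was made from the mixed liver RNA of 5 fish from the same tank, which makes the pool the replicate (n = 3 per diet). Values are FPKM, in which the fragments of a transcript are divided by its length and by the mapped fragments of the library. The number of fragments counted at each locus was not used here, so no counting error is given.

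The liver makes most of the iron proteins of blood plasma. In vertebrates, transferrin carries ferric iron in plasma and is taken up by cells through transferrin receptors, ferritin stores iron inside cells, and ferroportin releases it into plasma, where ceruloplasmin oxidises it so that transferrin can bind it. Hepcidin, a peptide hormone of the liver, binds ferroportin and causes its breakdown, and hemopexin clears free haem. In fish, transferrin and hepcidin are also known for their part in defence against bacteria, from which transferrin withholds iron. The roles given below come from work on mammals or zebrafish and not from tilapia.

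Of the 11 loci, 10 passed the filter, which asked for 3 or more libraries with an FPKM of 1 or more, and *fth1b* did not. None of the 10 was a differentially expressed (DE) gene in any comparison with limma on log2(FPKM + 1), where a DE gene needed an adjusted p (Benjamini-Hochberg) under 0.05 and a |log2 fold change| of 1 or more. Among all 20575 genes tested, 0.0972% were DE genes in APP_A vs. C, 0.122% in APP_H vs. C, and for APP_H vs. APP_A the share was 0.136%. The 3 comparisons share libraries and are not independent. At an unadjusted p under 0.05, 0 of the 10 passed in APP_A vs. C, where 1.48% of all genes were higher and 1.92% lower. There were likewise 0 in APP_H vs. C, against 3.18% higher and 4.4% lower among all genes. In APP_H vs. APP_A the count was 1, *hamp*, which was higher, against 5.71% of all genes higher and 5.17% lower.

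The library APP_H3 stood apart from the other 8, and this touches each APP_H value below. Its mean log2(FPKM + 1) over 21 hepatocyte marker loci was 4.63, against 7.21 to 8.65 in the other libraries, and 18 of the 21 were below the median of the others. Its mean over 11 blood marker loci was 6.41, against 2.63 to 4.48, and 10 of the 11 were above the median of the others, with *epb41a* at 0 in all libraries. The exocrine pancreas list was lower in APP_H3, at 5.08 against 6.91 to 10.6, the lymphoid list was higher, at 2.50 against 0.52 to 2.22, and the myeloid list lay inside the range of the others, at 3.98 against 2.76 to 4.24. Of all genes tested, 25.7% had their lowest value in APP_H3 and 26.3% their highest. In bulk libraries, fewer cells of a type and less RNA per cell cannot be told apart. The main APP_H results are therefore given with and without APP_H3.

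Transferrin was among the most abundant of these transcripts, and its levels in APP_A and C did not overlap. *tfa* (XLOC_001471, scaffold GL831134.1 from 6169406 to 6185407) had an FPKM of 4949, 4328 and 6213 in APP_A1, APP_A2 and APP_A3, against 9129.6, 11222 and 8408 in C1, C2 and C3. The means were 5163 ± 961 in APP_A and 9587 ± 1461 in C (SD, n = 3 each), and the highest APP_A pool was below the lowest C pool. *tfa* was the only member in which all APP_A pools were lower, and 6.34% of all genes tested were lower in the same way. No member was higher in all APP_A pools, compared with 4.69% of all genes. The mean log2 difference of −0.90 corresponds to 0.54 times the C level. An exact two-sided permutation test over the 3 and 3 pools gave p = 0.1, which is the smallest that this design allows.

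In the fit of all 9 libraries, limma gave *tfa* a log2 fold change of −0.90 in APP_A vs. C (SE 1.21, 95% interval −3.70 to 1.90, adjusted p = 1). The spread used there is shared by the 3 diets and includes APP_H3. Without APP_H3 the SE was 0.52 and the adjusted p was 0.959 by limma. With only the APP_A and C libraries the SE was 0.24, the 95% interval was −1.49 to −0.31, the unadjusted p was 0.0108 and the adjusted p was 0.663. Over the 20 alternatives the log2 fold change was −1.04 to −0.78, and *tfa* did not pass the adjusted threshold in any of them. Leaving out a single library could not turn its direction, since the APP_A and C pools did not overlap. Several of the other settings left the APP_A and C means unchanged, so the shared direction is no test of *tfa*.

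In APP_H, *tfa* was spread over a range wider than that of the other diets together. It had an FPKM of 14818 in APP_H1, 3583 in APP_H2 and 331 in APP_H3, so the highest and the lowest of the 9 values both came from this diet. The mean of 6244 ± 7601 has an SD larger than itself, and without APP_H3 it was 9201 ± 7945 (SD, n = 2). The log2 fold change of APP_H vs. C was −1.87 with all libraries (SE 1.21, limma adjusted p = 0.695) and −0.38 without APP_H3 (SE 0.58, adjusted p = 0.930). Without APP_H1 it was −3.12, with a limma adjusted p of 0.212. For APP_H vs. APP_A it was −0.97 (SE 1.21, adjusted p = 0.733) and turned to 0.51 without APP_H3 (SE 0.58, adjusted p = 0.802), against −2.23 without APP_H1 (adjusted p = 0.217). Exact two-sided permutation tests gave p = 0.4 for APP_H vs. C and p = 0.7 for APP_H vs. APP_A. Across the 3 diets, the exact permutation test of the F statistic over 280 splits gave p = 0.461. Without APP_H1 that p was 0.0036, the smallest the test can give, and it lay between 0.346 and 0.664 when any other library was left out.

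**Figure D1:**
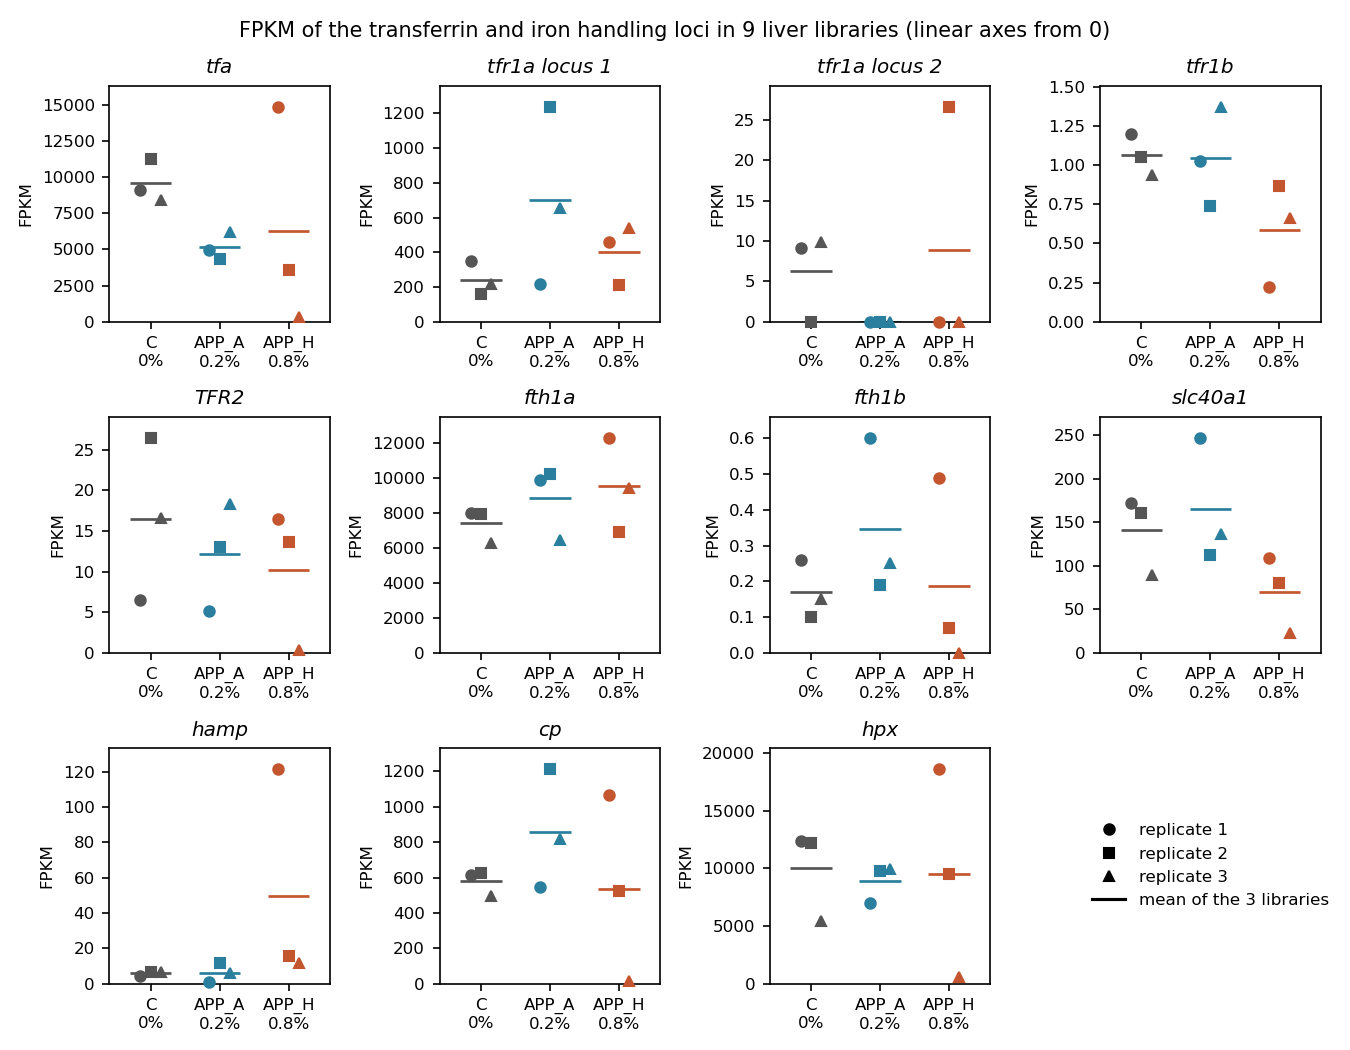
FPKM (y axes, linear from 0, 1 scale per locus) of the 11 loci in 9 liver libraries by diet (x axes: C with 0%, APP_A with 0.2% and APP_H with 0.8% APP). Points are libraries, with shapes for the replicate number, and lines are means of 3. For *tfa* the 3 APP_A points, between 4328 and 6213, sit below the 3 C points, between 8408 and 11222, while the APP_H points run from 331 to 14818. For *hamp* the APP_H1 point is at 121 and the 8 other points are at or below 15.6.

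As a share of its library, *tfa* did not overlap between APP_A and C, but this rescales the same values and adds no separate evidence. It made up 0.212%, 0.202% and 0.268% of the summed FPKM in the APP_A pools, against 0.347%, 0.501% and 0.396% in the C pools. In APP_H the share was 0.585%, 0.185% and 0.0270%. By level, *tfa* ranked 71st, 68th and 53rd among the loci of the APP_A pools and 39th, 24th and 28th in the C pools. In APP_H it ranked 26th in APP_H1, 81st in APP_H2 and 570th in APP_H3.

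Fibrinogen, a plasma clotting protein that hepatocytes also secrete, was set beside *tfa* after the values had been seen. The ratio of *tfa* to the mean FPKM of the fibrinogen chain genes *fga*, *fgb* and *fgg* was 0.647, 0.430 and 0.449 in APP_A, against 0.904, 1.17 and 1.07 in C. The pools did not overlap, and the ratio in APP_A was 0.48 times that in C. The exact two-sided permutation p was 0.1, the smallest possible. This ratio shares the *tfa* values, so its p adds no separate evidence on *tfa*. In APP_H the ratio was 1.19, 0.614 and 0.892. APP_H3, which had the lowest *tfa* value, had a ratio inside the range of the other libraries, and its mean fibrinogen FPKM was also low, at 371. The mean fibrinogen FPKM was 7652, 10061 and 13836 in APP_A and 10102, 9598 and 7862 in C, and those pools overlapped.

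**Figure D2:**
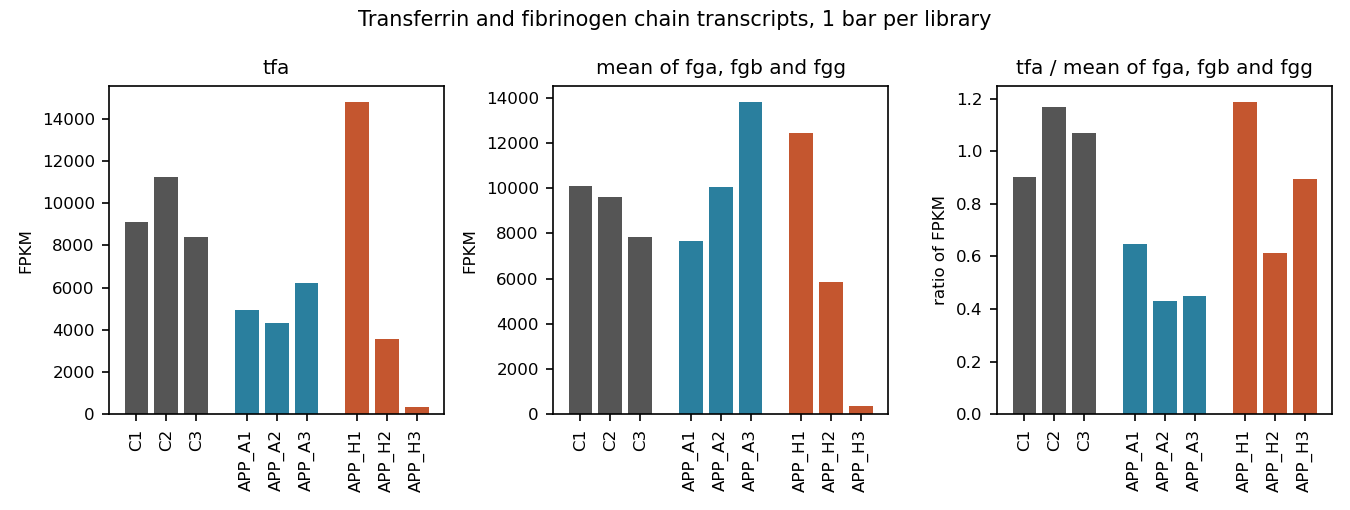
FPKM of *tfa* (left), mean FPKM of the fibrinogen chain genes *fga*, *fgb* and *fgg* (middle) and the ratio of *tfa* to that mean (right), with 1 bar per library and all y axes linear from 0. The ratio lies between 0.430 and 0.647 in the APP_A bars and between 0.904 and 1.17 in the C bars, and APP_H3 has low bars for *tfa* and fibrinogen but a ratio of 0.892.

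In the other abundant plasma protein genes the APP_A and C pools overlapped. *hpx*, the haem scavenger hemopexin (XLOC_025187, scaffold GL831297.1 from 1199284 to 1203779), had an FPKM of 6980.5, 9765 and 9966 in APP_A, against 12382, 12227 and 5429.8 in C. The APP_A values lay inside the range of the C values, with a log2 fold change of −0.09 (SE 1.21, limma adjusted p = 1). In APP_H it had 18578, 9505 and 539.6, so that APP_H1 was above and APP_H3 below every other library. In APP_H vs. C its log2 fold change was −1.04 (SE 1.21, limma adjusted p = 0.781) and turned to 0.50 without APP_H3 (SE 0.49, adjusted p = 0.879).

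*cp*, the plasma copper protein that oxidises iron (XLOC_032740, scaffold GL831476.1 from 232129 to 247362), had an FPKM of 544, 1211 and 820.05 in APP_A, against 615, 627 and 497 in C. APP_A2 and APP_A3 were above the C pools and APP_A1 was among them, and the log2 fold change was 0.50 (SE 1.37, limma adjusted p = 1). In APP_H it had 1067, 522 and 17.4. Its log2 fold change in APP_H vs. C was −1.41 (SE 1.37, limma adjusted p = 0.745) and turned to 0.37 without APP_H3 (SE 0.47, adjusted p = 0.911). For APP_H vs. APP_A it was −1.91 with all libraries and −0.13 without APP_H3, with limma adjusted p values of 0.575 and 0.950. The ratio of *tfa* to *cp* was 3.57 to 9.09 in APP_A, against 14.9 to 17.9 in C, and 6.87 to 19.0 in APP_H. The ratio of *tfa* to *hpx* was 0.443 to 0.709 in APP_A, against 0.737 to 1.55 in C, and 0.377 to 0.798 in APP_H. These ratios share the *tfa* values and add no separate evidence on *tfa*.

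The receptors differed in level by orders of magnitude. *tfr1a*, the receptor that zebrafish red cell precursors need to take up transferrin, had 2 loci with the same interval (XLOC_022637 and XLOC_022638, scaffold GL831264.1 from 1171542 to 1210326), and its reads could have been split between them, so both are uncertain. The first locus had an FPKM of 217, 1234 and 656 in APP_A, against 351, 159 and 214 in C. APP_A2 and APP_A3 were above every C pool and APP_A1 was not. The log2 fold change of 1.29 (SE 0.74, 95% interval −0.43 to 3.01) had an adjusted p of 1 with limma, and it was 0.72 without APP_A2 and 1.97 without APP_A1. In APP_H it had 457, 209 and 538, and the log2 fold change of APP_H vs. C was 0.70 (SE 0.74, limma adjusted p = 0.761), or 0.43 without APP_H3. The second locus was listed at 0 in 6 of the 9 libraries and had 9.10 in C1, 9.85 in C3 and 26.6 in APP_H2. The 2 loci added together gave 217 to 1234 in APP_A, 235 to 538 in APP_H and 159 to 360.2 in C.

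*tfr1b*, the second transferrin receptor 1 gene of teleosts (XLOC_003155, scaffold GL831138.1 from 6561732 to 6570763), was close to the filter. It had an FPKM of 0.22, 0.87 and 0.66 in APP_H, against 1.20, 1.05 and 0.94 in C. All APP_H pools were below all C pools, as in 7.02% of all genes tested. The log2 fold change was −0.40 (SE 0.25, limma adjusted p = 0.691) and −0.45 without APP_H3, on a log2(FPKM + 1) scale that understates differences at such levels. The APP_A pools had 1.03, 0.74 and 1.37 and overlapped with both other diets.

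*TFR2*, which in mammals senses transferrin iron in hepatocytes and acts on hepcidin (XLOC_036177, scaffold GL831845.1 from 50935 to 62602), had an FPKM of 5.08, 13.0 and 18.4 in APP_A, against 6.51, 26.4 and 16.6 in C. The APP_H pools had 16.5, 13.6 and 0.33. The diets overlapped, and APP_H3 was again the lowest library. For APP_H vs. C, limma gave a log2 fold change of −1.14 (SE 1.04, adjusted p = 0.737) and 0.06 without APP_H3 (SE 0.68, adjusted p = 0.996).

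Hepcidin was higher in every APP_H pool than in every pool of the other diets, by an amount that rested largely on 1 pool. *hamp* (XLOC_018704, scaffold GL831224.1 from 2675045 to 2677135) had an FPKM of 121, 15.6 and 11.6 in APP_H1, APP_H2 and APP_H3, against 4.25, 6.76 and 6.32 in C. In APP_A it had 1.08, 11.5 and 6.13. The lowest APP_H pool (11.57) and the highest APP_A pool (11.49) were nearly equal. Among all genes, 5.91% were higher in every APP_H pool than in every C pool, and 7.45% than in every APP_A pool. The share of all genes that met both conditions at once is not given here.

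The log2 fold change of *hamp* was 2.14 in APP_H vs. C (SE 0.96, 95% interval −0.09 to 4.36), with an unadjusted p of 0.0576 and an adjusted p of 0.665 from limma. In APP_H vs. APP_A it was 2.37 (SE 0.96, 95% interval 0.14 to 4.59), with an unadjusted p of 0.0399 and an adjusted p of 0.438. Without APP_H3 both were larger, at 2.75 (SE 1.02, adjusted p = 0.593) and 2.98 (SE 1.02, adjusted p = 0.424). *hamp* was then the only 1 of the 10 members tested with an unadjusted limma p under 0.05 in either comparison. At that threshold 3.75% of all genes were higher and 3.87% lower in APP_H vs. C. In APP_H vs. APP_A the shares were 5.53% and 4.27%. Without APP_H1 the log2 fold changes of *hamp* were smaller, at 1.11 and 1.34. In APP_A vs. C the log2 fold change was −0.23 (SE 0.96, adjusted p = 1). Over the 20 alternatives, *hamp* passed the adjusted threshold in none. It stayed higher in APP_H than in either other diet, but leaving out a single library could not turn that direction. Every APP_H pool was above every pool of the other diets, and several of the other settings left the means unchanged.

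*slc40a1*, the iron exporter that hepcidin acts on (XLOC_031538, scaffold GL831428.1 from 604996 to 618443), had an FPKM of 108, 80.2 and 22.1 in APP_H, against 246, 112 and 136 in APP_A. All APP_H pools were below all APP_A pools, as in 7.06% of all genes, with little distance between APP_H1 at 108 and APP_A2 at 112. The C pools had 172, 160.3 and 89.05 and overlapped with both. The log2 fold change of APP_H vs. APP_A was −1.41 (SE 0.68, 95% interval −2.98 to 0.16), with an unadjusted p of 0.0726 and an adjusted p of 0.477 from limma. Without APP_H3 it was −0.73 (SE 0.48, adjusted p = 0.654). In APP_H vs. C it was −1.21 with all libraries and −0.53 without APP_H3, with limma adjusted p values of 0.674 and 0.866.

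Among the abundant members, ferritin had the smallest ratio of highest to lowest value, but not the smallest spread within C or within APP_A. *fth1a*, the heavy subunit that oxidises and stores iron (XLOC_011737, scaffold GL831173.1 from 579856 to 582848), had an FPKM of 9903, 10240.3 and 6475 in APP_A, against 7976, 7966 and 6257 in C. In APP_H it had 12271, 6928 and 9444. The diets overlapped, and log2 fold changes were 0.24 in APP_A vs. C, 0.34 in APP_H vs. C and, for APP_H vs. APP_A, 0.10 (SE 0.41 each), with limma adjusted p values of 1, 0.789 and 0.934. Without APP_H3 the comparisons of APP_H with C and with APP_A gave 0.33 and 0.085. Over the 8 libraries without APP_H3, the highest *fth1a* value was 1.96 times the lowest. The same ratio was 2.44 for *cp*, 3.42 for *hpx*, 4.14 for *tfa* and 112 for *hamp*. In C the SD was 12.4% of the mean for *cp*, 13.4% for *fth1a*, 15.2% for *tfa* and 39.6% for *hpx*. In APP_A it was 18.6% for *tfa*, 18.7% for *hpx*, 23.5% for *fth1a* and 39.0% for *cp*. *fth1b* (XLOC_004693, scaffold GL831142.1 from 8792129 to 8800280) had an FPKM of at most 0.60 in every library and was not tested.

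**Figure D3:**
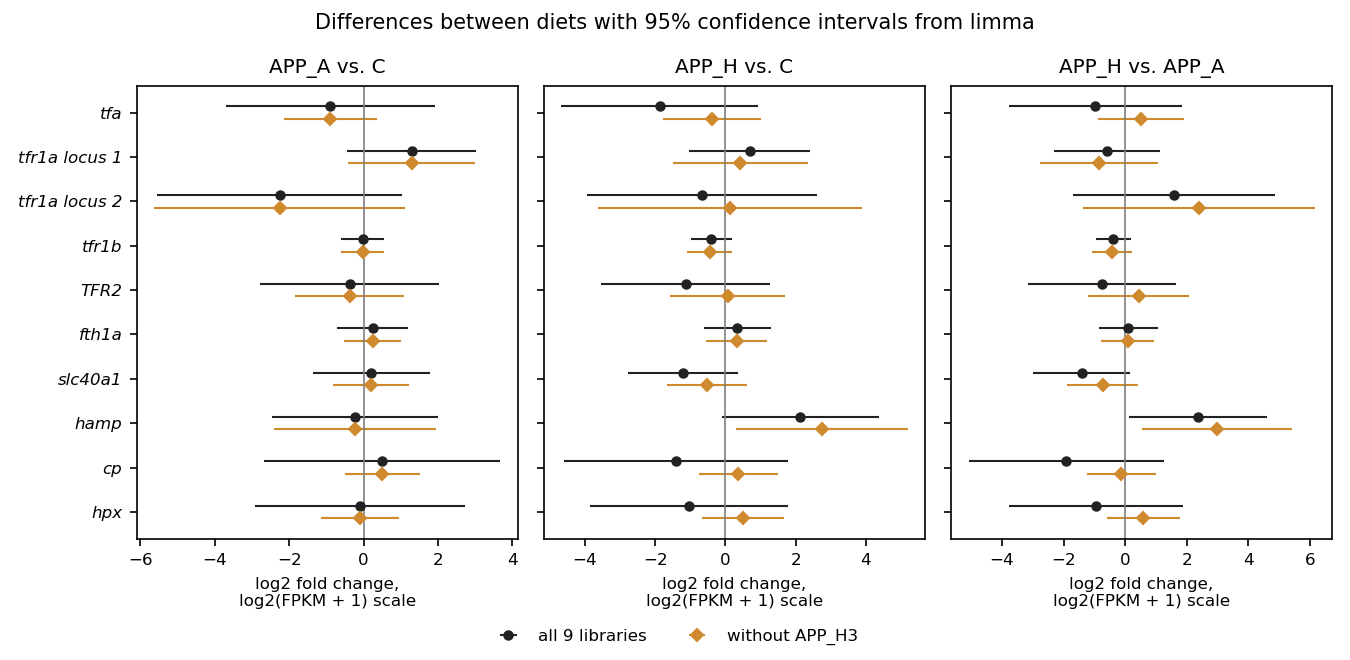
Log2 fold changes (x axes, log2(FPKM + 1) scale) with 95% confidence intervals from limma for the 10 loci tested (y axis), for APP_A vs. C (left), APP_H vs. C (middle) and APP_H vs. APP_A (right). Circles are the fit of all 9 libraries and diamonds the fit without APP_H3. In APP_A vs. C the points coincide and the intervals of *tfa*, *cp* and *hpx* shorten without APP_H3. In APP_H vs. C, *hpx*, *cp*, *TFR2* and the second *tfr1a* locus move across 0, while *hamp* is at 2.14 and 2.75.

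Ordered by the median FPKM over the 9 libraries, the levels per length were 9765 for *hpx*, 7976 for *fth1a*, 6213 for *tfa*, 615 for *cp*, 351 for the first *tfr1a* locus, 112 for *slc40a1*, 13.6 for *TFR2*, 6.76 for *hamp*, 0.94 for *tfr1b*, 0.19 for *fth1b* and 0 for the second *tfr1a* locus. The steps from *tfa* to *cp*, from *slc40a1* to *TFR2* and from *hamp* to *tfr1b* had the same direction in 9 of 9 libraries. *hpx* was above *fth1a* in 5 of 9 libraries, *fth1a* was above *tfa* in 5 of 9, and *TFR2* was above *hamp* in 6 of 9, so these neighbours could not be ordered beyond the spread between libraries. *cp* exceeded the first *tfr1a* locus in 7 of 9 libraries, and that locus exceeded *slc40a1* in 7 of 9.

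Across the 10 members tested, the median log2 fold change was −0.06 in APP_A vs. C, compared with −0.05 over all genes. In APP_H vs. C it was −0.85 against −0.03 over all genes, and in APP_H vs. APP_A −0.68 against 0.02. Without APP_H3 these medians of the members were 0.23 and 0.26, against −0.0005 and 0.048 over all genes. The negative medians of APP_H thus depended on that library.

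In APP_H3, 5 of the 10 members tested were below their lowest value in the other 8 libraries, and 0 were above their highest, against the 25.7% and 26.3% of all genes given above. *TFR2* stood at 2.19% of the median of the other libraries, *cp* at 2.80%, *tfa* at 4.53%, *hpx* at 5.47% and *slc40a1* at 17.8%. The second *tfr1a* locus was listed at 0 there. *fth1a* stood at 118% of the median of the others, *hamp* at 177%, the first *tfr1a* locus at 189% and *tfr1b* at 67.0%, each inside the range of the other libraries. The hepatocyte and blood marker lists moved in the same library, and their part in these values was not tested.

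A wider list of iron genes, grouped by role, matched 59 loci, of which 49 were tested. DE genes numbered 0 in each comparison, with and without APP_H3. At an unadjusted p under 0.05 with limma the count was 0 in both comparisons with C and 3 of 49 in APP_H vs. APP_A, with 2 higher and 1 lower, against 5.71% and 5.17% of all genes. Those 3, named because they passed, were *ppox*, an enzyme of haem synthesis, and *blvra*, which reduces biliverdin, both higher, and *furina*, a protease, which was lower. The median log2 fold change of the 49 loci was 0.13 in APP_A vs. C, and it was −0.04 and −0.05 when APP_H was compared with C and with APP_A, where the medians of all genes were −0.05, −0.03 and 0.02. Without APP_H3 it turned to 0.11 for APP_H vs. C and was −0.02 for APP_H vs. APP_A.

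The loci that passed an unadjusted p under 0.05 changed when APP_H3 was left out of the limma fit, and they are named because they passed. In APP_A vs. C they included *hmox2a*, a haem oxygenase, which was higher, and *acvr1l*, a receptor of the BMP family, *ppox* and *blvra*, which were lower. Among all genes 2.13% were then higher and 3.12% lower. In APP_H vs. C they were *flvcr2a* and *alas1*, the first enzyme of haem synthesis outside red cells, both higher, against 3.75% of all genes higher and 3.87% lower. In APP_H vs. APP_A they were *flvcr2a*, *alas1* and *blvra*, all higher, against 5.53% of all genes higher and 4.27% lower. *flvcr2a* and *alas1* had their lowest value of the 9 libraries in APP_H3, which this fit left out. *flvcr2a*, close to the filter, had an FPKM of 2.87, 1.66 and 0.40 in APP_H, against 1.28, 0.78 and 0.89 in C. *alas1* had 99.6, 77.8 and 20.15 in APP_H, against 33.7, 41.4 and 21.8 in C. With all 9 libraries their unadjusted limma p in APP_H vs. C was 0.443 and 0.255. The lowest adjusted p of the 49 loci was 0.808, 0.410 and 0.450 in these 3 comparisons.

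*ppox* (XLOC_012493) had an FPKM of 7.00, 10.3 and 36.1 in APP_H, against 3.11, 6.94 and 4.03 in APP_A, and 7.25, 9.20 and 12.6 in C. *blvra* (XLOC_028365) had 9.71, 9.26 and 88.3 in APP_H, against 5.52, 3.53 and 5.02 in APP_A, and 7.45, 11.1 and 16.95 in C. For both genes the APP_A pools were below the APP_H and the C pools, and APP_H3 was the highest library. For *ppox* the distance was small, with APP_A2 at 6.94, APP_H1 at 7.00 and C1 at 7.25. Among all genes tested, 6.34% were lower in every APP_A pool than in every C pool, against 3 of 49 in the wider list. Higher in every APP_H pool than in every APP_A pool were 7.45% of all genes, against 4 of 49 in the list. The log2 fold changes of APP_H vs. APP_A were 1.45 and 1.93, with limma adjusted p values of 0.437 and 0.456, and leaving out APP_H3 gave 0.80 (adjusted p = 0.561) and 0.90 (adjusted p = 0.487). *furina* (XLOC_007091) had 6.02, 2.32 and 1.79 in APP_H and 7.21, 4.75 and 12.8 in APP_A, which overlapped.

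The locus with the highest mean FPKM in each role was low in APP_H3 in some roles and high in others, and other loci of the same role could go the other way. Haptoglobin (*hp*, XLOC_021698), which binds free haemoglobin, had an FPKM of 133 in APP_H3, against 934 to 3980 in the others. *TMPRSS6*, a protease that lowers hepcidin in mammals, had 6.08 against 37.3 to 93.6, *steap4*, a metalloreductase (XLOC_019267), had 2.43 against 27.0 to 63.5, and *flvcr2b* had 3.77 against 12.4 to 43.1. The other direction was seen for *alas2*, the erythroid enzyme that starts haem synthesis and which is also on the blood marker list, at 915 against 31.5 to 147. *ncoa4*, which carries ferritin to its breakdown, had 162 against 62.4 to 78.3, and *iscub*, a scaffold for iron-sulphur clusters, had 189 against 43.0 to 101. Melanotransferrin (*mfi2*) was listed at 0 in all libraries.

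In uptake and reduction, for example, *steap3* stood at 290.1% of the median of the other libraries, where *steap4* stood at 5.15%. By role, the regulators had 7 of 11 loci below and 4 of 11 above every other library in APP_H3. Haem and haemoglobin clearance had 7 of 12 below and 3 of 12 above, and haem synthesis had 2 of 8 below and 4 of 8 above. Uptake and reduction had 3 of 7 below and 1 of 7 above, export and oxidation had 3 of 4 below and 0 above, and storage and iron-sulphur clusters had 0 below, with 2 of 2 and 2 of 5 above. Over the wider list, 22 of 49 loci (44.9%) were below and 16 of 49 (32.7%) above, compared with 25.7% and 26.3% of all genes. The haem synthesis genes with their highest value in APP_H3 were *alas2*, *hmbsa*, *ppox* and *fech*, with *fech*, which inserts iron into haem, at 15.9 in APP_H3 and at most 7.26 in the others. Their lowest value was there for *alas1* and *alad*, and *urod* and *cpox* lay inside the range of the other libraries. The part of the blood and hepatocyte markers in these values was not tested.

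**Figure D4:**
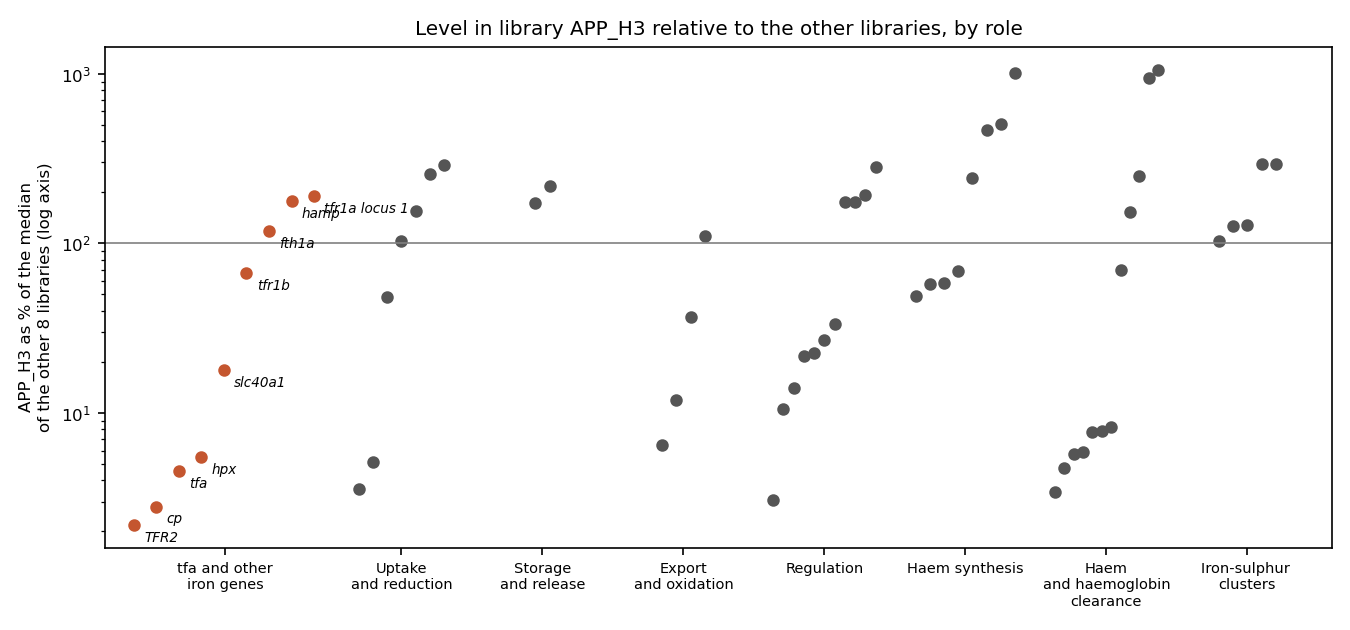
FPKM in library APP_H3 as a percentage of the median of the other 8 libraries (y axis, log scale, with a line at 100%) for the tested members, drawn in orange with their names and leaving out the second *tfr1a* locus, whose median is 0, and for the 49 loci of the wider iron list, drawn in grey by role (x axis). *TFR2*, *cp*, *tfa* and *hpx* lie between 2.19% and 5.47%, while *fth1a*, *hamp* and the first *tfr1a* locus lie above 100%.

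The genes whose log2(FPKM + 1) values were most like those of *tfa* were listed by Pearson's r as a description, since the points share their libraries. Only the 9564 genes that passed the filter and had a gene symbol were compared. Over the 9 libraries the 10 highest were *ACSF2* (an acyl-CoA synthetase family member), *kynu* (kynureninase, of tryptophan breakdown), *aass* (of lysine breakdown), *SMOC1*, *ptpn3*, *aqp10a*, *dab1a*, *cgna*, *STARD10* and *ehhadh* (of peroxisomal fatty acid oxidation), with r between 0.98 and 0.99. High values were common over 9 libraries, with r of at least 0.9 for 701 of 9564 genes (7.33%), and they included the low value of APP_H3.

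Over the 8 libraries without APP_H3, only 22 of the 9564 genes (0.230%) had an r of at least 0.9 with *tfa*. The 10 highest were *gnptg*, *sgsh*, *ACSF2*, *SMOC1*, *aass*, *coq3*, *ankrd10a*, *sec23a*, *kynu* and *zgc:172121*, with r between 0.92 and 0.96. *ACSF2*, *kynu*, *aass* and *SMOC1* were in both lists. *ACSF2* (XLOC_006764) had r of 0.99 over 9 and 0.95 over 8 libraries. Of the iron genes, *hpx* had r of 0.93 with *tfa* over 9 libraries and 0.52 over 8, *cp* had 0.90 and 0.14, *TFR2* had 0.85 and 0.34, and *slc40a1* had 0.80 and 0.10. For *fth1a* r was −0.08 over 9 libraries and 0.24 over 8. For *hamp* it was 0.11 and 0.41, for *tfr1b* 0.06 and −0.36, for the first *tfr1a* locus −0.27 and −0.18, and for the second 0.12 and −0.25.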

How the data were processed

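Liver RNA-seq of 9 pools was examined, and all 9 columns of the deposited table were used. Per the methods of the paper, the authors used TopHat 2 for alignment to the genome of Nile tilapia and Cufflinks for DE genes, and gave expression as FPKM, the unit of the deposited table, while the submitters' processing notes list Bowtie 0.12.2, HISAT2 2.0, StringTie 1.3.0 and the mouse build mm8. The reference transcripts named for the member loci are those of Nile tilapia (ENSONIT names) and not of the mouse. Which of the programs made the table could not be settled. The build of the scaffolds is not given in the sources used here, and positions are as in the table. No sequences are shown, since no genome of this build was used. The paper gives reads per library, but no counts per locus entered the tests and no counting error is given, and whether strand was used in counting is not given in the sources used here. An FPKM of 0 can be a failed estimate.

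Values were analysed as log2(FPKM + 1) for 20575 genes that reached an FPKM of 1 in 3 or more libraries, with limma 3.58.1 in R 4.3.3, a trend in the prior variance, 1 mean per diet and Benjamini-Hochberg adjustment over all genes in each comparison. DE genes had an adjusted p under 0.05 and a |log2 fold change| of at least 1. Single values of *tfa* were tested by exact permutation. The limma step was also run on simulated data in which each gene had the same spread in all libraries. Those data hold no unlike library such as APP_H3, so no conclusion is drawn from them. Named were every member, called loci and the most abundant locus per role of the wider iron list, and the 10 genes with a symbol most like *tfa*. Alternatives tried were pseudocounts of 0.1 and 0.01, no filter, a filter at 5 FPKM, median-ratio scaling, scaling per 1000000 of summed FPKM, quantile normalization, the replicate number as a block, no trend, zeros as missing, each library left out, fits of 2 diets, and other call rules. The members and lists were chosen with earlier results of these data known. The lists were written from general knowledge, and 1 result of the wider list is not reported here. Python 3.11.15 and matplotlib 3.10.9 drew the figures.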

Additional observations from a re-analysis of the deposited data

How the results depend on the processing

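No iron gene of either list became a DE gene under any alternative fit. The data had 3 pools per diet, no counts per locus and the unlike library APP_H3, and the part of these in that result was not tested. Dropping the adjustment but keeping the fold change gave 1 of 10 members and 3 of 49 genes of the wider list in APP_H vs. APP_A. Under the same rule 1624 of all 20575 genes tested passed in that comparison. The counts of DE genes among all genes (20, 25 and 28 for APP_A vs. C, APP_H vs. C and APP_H vs. APP_A) moved more. A pseudocount of 0.01 gave 42, 38 and 53, unadjusted p with the fold change gave 522, 1131 and 1624, fits of only 2 diets gave 35 for APP_A vs. C and 57 for APP_H vs. APP_A, and zeros as missing gave 12 and 17 for the same pair of comparisons. Leaving out each library in turn gave 12 to 26, 18 to 55 and 5 to 59, with the extremes of the last at APP_A2 and APP_H3. The replicate number as a block gave 7, 8 and 3 and changed no call of an iron gene. Libraries of the same number had deviations correlated at −0.07 to 0.13, with 1 of 9 pairs over 0.1, and 4 of 9 libraries correlated best with their own number, so the numbers were not taken as pairs. Quantile normalization turned *tfr1b* in APP_A vs. C to 0.13. Leaving out 1 library changed the sign of further log2 fold changes. In APP_A vs. C the ranges were −0.13 to 0.090 for *tfr1b*, −0.79 to 0.50 for *hamp*, −0.49 to 0.11 for *hpx*, −0.13 to 0.44 for *slc40a1* and −0.90 to 0.10 for *TFR2*. In APP_H vs. C they were −2.26 to 0.13 for the second *tfr1a* locus, −2.05 to 0.50 for *hpx*, −2.56 to 0.37 for *cp* and −1.80 to 0.061 for *TFR2*. In APP_H vs. APP_A they were −2.23 to 0.51 for *tfa*, −0.12 to 0.31 for *fth1a*, −1.96 to 0.60 for *hpx* and −1.42 to 0.44 for *TFR2*. The second *tfr1a* locus did not change sign there, with a range of 0 to 2.39, and was 0 without APP_H2. The p of *tfa* across the 3 diets ranged from 0.0036 to 0.664 in the exact permutation test. Scaling per 1000000 of summed FPKM moved the median of all genes by 0.22 in APP_H vs. C and by 0.20 in APP_H vs. APP_A, and quantile normalization moved it by 0.11 in APP_A vs. C. Causes of these changes were not tested.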
